A study of Rattus norvegicus with 2 samples.

Results

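The genes described here are the fatty acid binding proteins Fabp1 to Fabp7, the fatty acid transporter gene Cd36 and the acyl-CoA binding protein gene Dbi, 9 genes chosen by name out of 14217 genes represented on the arrays by a probe set annotated to exactly 1 gene. All 9 had such a probe set, and each had only 1, so that no gene had a second probe set to compare. A further probe set is annotated to Cd36 together with another gene and was left out. Liver RNA came from male Wistar rats aged 2 months and weighing 250 to 300 g, an outbred laboratory strain, without any genetic change named in the labels. The fasted group had no food for 18 h and no fat meal. The olive oil group was fasted for the same 18 h, then given 5 ml of extra virgin olive oil as a bolus, and killed 4 h later. The labels put this dose at about 16 ml per kg of body weight, less than 5 ml makes at the stated weights. Each group was 1 Affymetrix rat expression array. The labels state no number of livers per array and no hour of death, and leave unsaid if the controls waited the further 4 h. Every difference below therefore compares 2 arrays, with no replicate check, no error over animals and no test.

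Fatty acid binding proteins are small proteins of the cell interior that carry long-chain fatty acids and related lipids through the watery cytoplasm, and each was named after the tissue in which it was first found. Fatty acids enter cells by diffusion and with the help of membrane proteins such as CD36, are activated to acyl-CoA, and are then held by acyl-CoA binding protein until they are burned, stored or built into membranes. In liver the dominant binding protein is Fabp1, whose gene is a classical target of the fatty acid-sensing receptor PPAR-alpha. The question put to these genes was which of them differed in the liver after a load of meal fat, and whether the gene of the liver type stood beside those of the adipose, epidermal, intestinal, heart, ileal and brain types.

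The stretches of genome just upstream of Fabp1, Fabp2 and Fabp7 are shown because they hold the nuclear receptor motifs found among the members, one beside the liver-type gene, another beside the intestinal gene and a half-site beside the brain-type gene Fabp7, the only member at least 1.5-fold lower after oil. Each is the 250 bases before the gene's start in RefSeq, from the GRCr8 assembly on the plus strand, read 5′ to 3′. Fabp1 lies at chr4:104749090-104749339, Fabp2 at chr2:213724379-213724628 and Fabp7 at chr20:37669356-37669605. Capitals mark matches, on either strand, to a direct repeat of the relaxed nuclear receptor half-site AGNNCA with 1 base between the copies, to the strict half-site AGGTCA, and to the TATA box letters TATAAA.
Fabp1: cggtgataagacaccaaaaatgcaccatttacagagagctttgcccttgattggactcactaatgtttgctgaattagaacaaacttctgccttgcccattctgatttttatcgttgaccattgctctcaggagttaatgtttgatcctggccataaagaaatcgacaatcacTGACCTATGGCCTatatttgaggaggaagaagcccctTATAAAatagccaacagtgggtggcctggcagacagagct
Fabp2: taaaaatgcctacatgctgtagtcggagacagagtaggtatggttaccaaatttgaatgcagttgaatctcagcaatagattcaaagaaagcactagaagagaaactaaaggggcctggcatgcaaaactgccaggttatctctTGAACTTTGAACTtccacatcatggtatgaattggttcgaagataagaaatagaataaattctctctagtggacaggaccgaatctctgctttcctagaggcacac
Fabp7: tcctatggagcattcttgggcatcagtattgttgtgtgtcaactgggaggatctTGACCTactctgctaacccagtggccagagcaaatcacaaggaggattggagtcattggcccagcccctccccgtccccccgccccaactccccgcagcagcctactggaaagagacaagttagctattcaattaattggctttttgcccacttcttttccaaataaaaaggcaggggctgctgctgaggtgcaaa

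Of the 9 genes, 7 had an upstream window in the RefSeq promoter table, and Fabp4 and Fabp5 did not. The repeat was found in Fabp1, as TGACCTATGGCCT at positions -77 to -65 counted from the start, and in Fabp2, as TGAACTTTGAACT at -106 to -94. It occurred in 2.23% of all 33469 windows of the same length. The half-site AGGTCA was found in Fabp1, where it is part of the repeat, and in Fabp7 at -196 to -191, against 14.1% of all windows. TATAAA was found as written in Fabp1 at -40 to -35. Its reverse complement TTTATA, a match on the other strand, was found in Fabp6 at -41 to -36 and in Cd36 at -175 to -170. On either strand TATAAA was found in 12.9% of all windows, and in none of those of Fabp2, Fabp3, Fabp7 and Dbi. These matches describe letters only, and binding was not tested.

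The values are signal intensities in arbitrary units. A floor of 12.8, the 25th percentile of the table, replaced lower signals ahead of the log2 step. The term measured is kept for genes whose mean log2 signal was at least the median probe set's, equal to a signal of 41.4. Probe sets bind with different strength, so that ranks by signal and words such as bright or dim do not measure amounts of RNA. The summed signal of a list depends mostly on its brightest probe sets. Where a pair of signals is given, the fasted array comes first. Of the 9 genes, 8 were measured and Fabp6 was not.

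The olive oil array had a higher signal for the adipose-type and the epidermal-type binding proteins than the fasted array, a nearly equal one for the liver-type protein, Cd36 and Dbi, and a lower one for the brain-type protein. Fabp4 was 5.96-fold and Fabp5 3.61-fold higher in the olive oil array, and Fabp7 was 1.91-fold lower. The other 5 measured members lay within 1.5-fold. A size of 1.5-fold stands in for a threshold here. For scale, the log2 differences of measured probe sets of the same gene scattered with a standard deviation of 0.35 over 2290 genes. Among probe sets at or above the 75th percentile of brightness it was 0.23 over 853 genes. This is scatter between probe sets, which may also match different transcripts of a gene, and it holds no variation between rats.

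**Figure D1:**
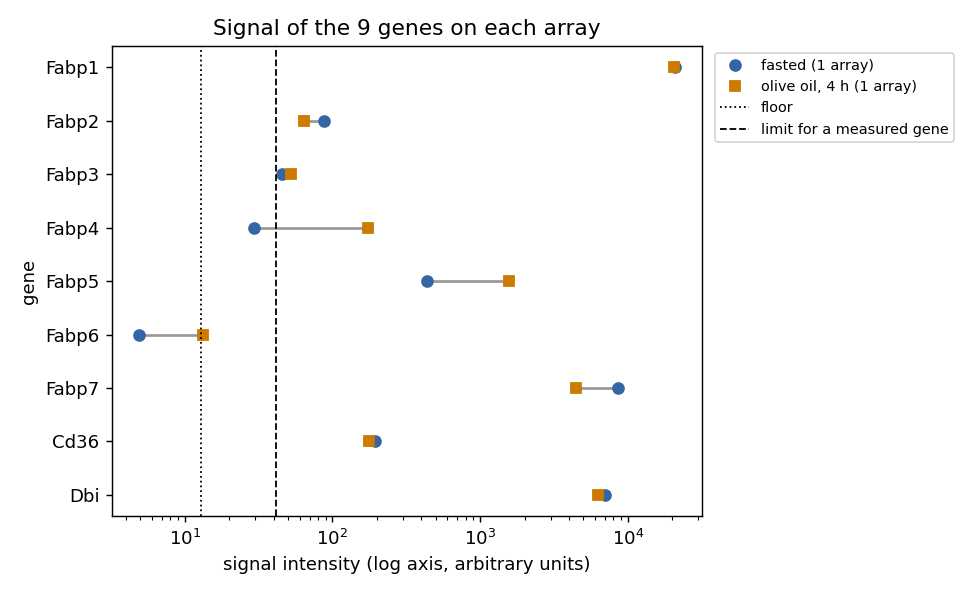
Signal of each of the 9 genes in the fasted array (circles) and the olive oil array (squares), on a log axis in arbitrary units, with the floor at 12.8 (dotted) and the limit for a measured gene at 41.4 (dashed). Fabp4 crosses the limit between the arrays, from 29.4 to 175.2, Fabp5 moves to the right and Fabp7 to the left, and the paired points of Fabp1, Cd36 and Dbi nearly coincide.

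Over the whole table of 9209 measured genes, the share past 1.5-fold was 9.44% upwards and 10.1% downwards, together 19.5%. Of the 8 members that were measured, 2 lay above that size and 1 below it, a number too small to set apart from that share. At 2-fold the shares were 3.21% upwards and 2.92% downwards, together 6.14%, against 2 members higher and 0 lower. The balance over all genes, 869 higher and 931 lower, became 700 and 1168 when the arrays were centred on their medians, a scaling that moved the median of all measured genes by -0.07 on the log2 scale, so that list medians between 0 and 0.07 given further on turn negative under it. The median log2 difference was -0.07 over the members and -0.01 over all measured genes, and 5 of the 8 members were on the negative side. Fabp4 passed the limit for measured genes only through its olive oil signal, so the count of measured members is a description.

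Fabp1, the liver-type binding protein, had a signal of 20786 without and 20497 with oil. The log2 difference was -0.02, and 95.8% of measured genes differed by at least as much. Its place on the intensity scale was at the top, with 2 probe sets brighter without oil and 0 with oil. At this end of the scale differences were small in general. Over the 100 brightest probe sets the median size of the log2 difference was 0.08, against 0.28 over all measured probe sets, and 2 of the 100 differed by 1.5-fold or more. Whether the scale is compressed at its upper end was not tested.

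Fabp4, the adipose-type protein, is abundant in fat cells and is also made by macrophages and the lining of capillaries. Its signal was 29.4 without oil, under the limit of 41.4, and 175.2 with oil. The log2 difference was 2.58. Since the fasted signal is dim, the size depends on how low signals are treated, with 2.01 for a floor raised to the 50th percentile and 2.07 for 16 added to each signal. The probe set carries a suffix that Affymetrix gives to probes matching several transcripts. In RNA of whole liver, more cells of a type and more RNA per cell cannot be told apart, nor can fewer cells and less RNA per cell.

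Fabp5, the epidermal-type protein, is found in many tissues, among them skin, macrophages and endothelium. Its signal was 437.7 without and 1580.8 with oil, both well above the limit for a measured gene. The log2 difference of 1.85 was the 49th highest, with 0.858% of measured genes at least as different. It lay between 1.78 and 1.87 in every alternative processing tried, so that it does not share the dependence of Fabp4 on the floor.

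Fabp7, the brain-type protein, is best known from radial glia and astrocytes. Its probe set was bright in these livers, at 8519 without and 4466 with oil. The log2 difference was -0.93, with 7.39% of measured genes at least as different, and it moved little over the alternatives tried. It was past 1.5-fold but not past 2-fold, although it came just past 2-fold when the arrays were centred on their medians. Of 5 markers of brain and glia with a probe set, 4 were not measured. Aqp4, the water channel of astrocytes, was at 1.4 and 1.3, and Gfap, an astrocyte filament, was at 5.0 and 20.2, whereas Mbp, a myelin protein, was at 315.1 and 169.9. That is the brightest Mbp probe set, and others of the gene, not measured, were at 12.6 and 35.1 and at 27.1 and 5.1. Syt1 was at 5.8 and 14.1 and Snap25 at 1.5 and 1.6. The summed signal of the 5 markers was 328.8 without and 207.1 with oil, mostly that of Mbp, and none was at 0.

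**Figure D2:**
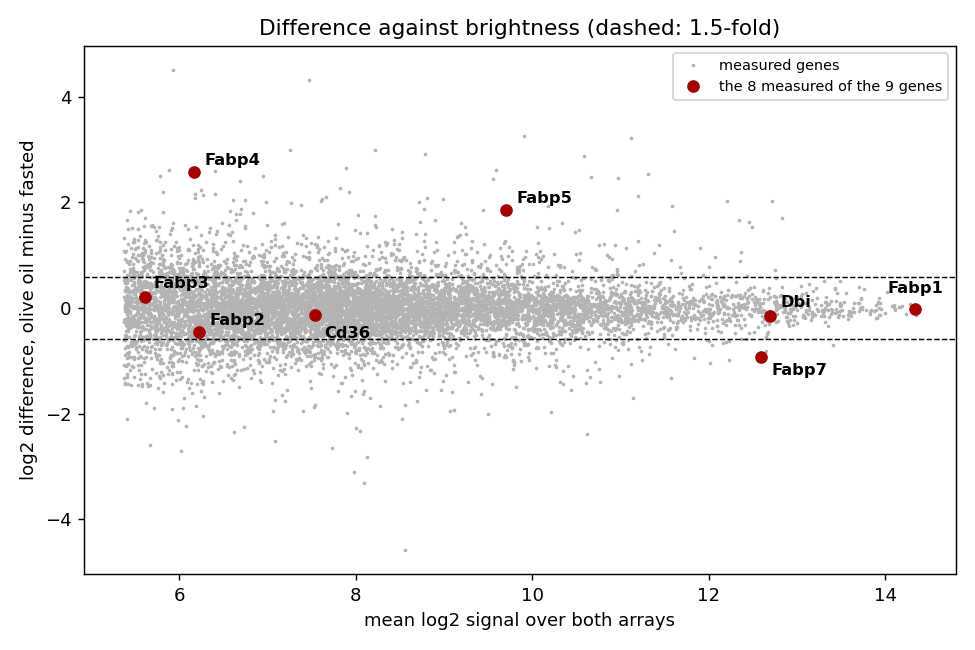
Log2 difference, olive oil minus fasted, against mean log2 signal over both arrays for 9209 measured genes (grey) and the 8 measured members (red), with dashed lines at 1.5-fold. Fabp4 and Fabp5 lie above the upper line at 2.58 and 1.85, Fabp7 lies below the lower line at -0.93 among bright genes that scatter little, and Fabp1 is at the bright end close to 0.

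The binding proteins of gut and heart had low signals in both arrays. Fabp2, the intestinal type, was at 87.4 without and 63.8 with oil, a log2 difference of -0.45 that 28.8% of measured genes reached. Fabp3, the heart and muscle type, was at 45.3 and 52.7, close to the limit for a measured gene, with a log2 difference of 0.22. Fabp6, the ileal type that carries bile acids, was at 4.9 and 13.3, the first below the floor and the second just above it, and no fold is given. Of 7 markers of intestinal epithelium with a probe set, 6 were not measured, and 4 of these, Vil1, Cdx1, Alpi and Slc5a1, were below the floor in both arrays. The exception was Cdh17, a cadherin, at 780.2 and 850.8. The summed signal of the list was 848.3 without and 943.5 with oil. Of 9 muscle markers with a probe set, 0 were measured, and their summed signal was 74.2 and 106.1.

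Cd36, which takes up long-chain fatty acids and oxidized lipoproteins at the cell surface, had a signal of 194.3 without and 177.6 with oil. Its log2 difference was -0.13, a size that 72.6% of measured genes reached. Dbi, the acyl-CoA binding protein, was at 6962 and 6273, with a log2 difference of -0.15 that 68.8% of measured genes reached. Both differences are smaller than 0.35, the standard deviation given above for probe sets of the same gene.

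In the RefSeq gene order Fabp4 and Fabp5 lie close together, with Fabp9 and Pmp2, 2 further genes of the family, between them and Fabp12 on the other side of Fabp4. Fabp9, the testis type, was at 2.5 and 4.0, and Pmp2, the myelin type, at 1.9 and 6.8, all below the floor, so that a difference could not be seen. Fabp12 was at 374.1 without and 238.2 with oil, 1.57-fold lower. Impa1, an inositol phosphatase gene beyond Fabp12, was at 655.0 and 438.6, with a log2 difference of -0.58. Beyond Fabp5, Zfp704, a zinc finger gene, was at 70.9 and 39.6, a log2 difference of -0.84. The genes Pag1, at 33.3 and 18.7, and Zbtb10, at 32.2 and 42.9, were not measured. These neighbours, other than those in the list of related genes, were named after their values were seen.

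The labelled tissue was checked against hepatocyte markers. All 9 with a probe set were bright, between 4274 and 18306 without oil and between 6057 and 18920 with oil, and 0 were at least 1.5-fold different. The marker lists of cell types known to make Fabp4 or Fabp5 are given beside these genes, and their part in the differences was not tested. Counts past 1.5-fold in these short lists stand beside 9.44% higher and 10.1% lower among all measured genes, and were not tested against these shares.

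Macrophage markers were nearly equal on the arrays, with 0 of 11 measured genes at least 1.5-fold different, a median log2 difference of 0.04 and summed signals of 10028 without and 10163 with oil. Clec4f, a receptor of Kupffer cells, was at 1552 and 1882, and Cd68 was at 274.5 and 273.2. Of 10 endothelial markers, 1 was at least 1.5-fold higher and 2 were lower, with summed signals of 6111 and 6558. Lyve1, a hyaluronan receptor of sinusoids, was 1.52-fold higher, though short of 1.5-fold with the arrays centred on their medians. Another Lyve1 probe set was at 1105 and 1888, a log2 difference of 0.77. Stab1, a scavenger receptor, was 1.75-fold and Emcn, a sialomucin, 1.61-fold lower.

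Fat cell markers were dim, and 5 of 7 with a probe set were not measured. Among these 5, Adipoq, the hormone adiponectin, was at 3.2 without and 28.2 with oil, and Plin1, the lipid droplet coat protein of fat cells, was at 15.3 and 55.3 on its brightest probe set and at 11.3 and 4.4 on another. Lep, leptin, was at 16.8 and 14.0, Plin4 at 29.1 and 42.6 and Aqp7 at 34.7 and 23.4. Of the measured pair, Lipe, hormone-sensitive lipase, was 1.52-fold lower and Cfd, adipsin, was at 163.6 and 177.9. The summed signal of the 7 markers was 370.7 without and 412.3 with oil, and none was at 0. The genes of the list thus differed in direction. Adipoq, Plin4 and the brightest Plin1 probe set were higher with oil, as Fabp4 was, and Lipe, Aqp7 and Lep were lower. All had signals near or below the limit for a measured gene except Lipe and Cfd.

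Blood leukocyte markers went both ways. Past 1.5-fold upwards were 2 of the 3 measured genes, S100a9, a calcium-binding protein of neutrophils, at 62.9 and 253.1, and its partner S100a8 at 32.0 and 75.7. S100a8 was under the limit without oil and counts as measured only through its signal with oil, so the count is a description. With the arrays centred on their medians Ptprc was past 1.5-fold downwards. Ptprc, the common leukocyte antigen, was at 158.6 and 108.3, with a log2 difference of -0.55. The summed signal of the 4 genes with a probe set was 281.5 without and 474.1 with oil. Keratinocyte markers, of interest for the epidermal-type Fabp5, were not measured in 3 of 4 cases, and the measured one, Krt10, was 2.66-fold lower, with summed signals of 162.2 and 73.8 over the 4. Stellate cell and fibroblast markers were at least 1.5-fold higher for 3 of 10 genes, Dcn, Acta2 and Lum, and lower for Lrat, with summed signals of 3489 and 3745.

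**Figure D3:**
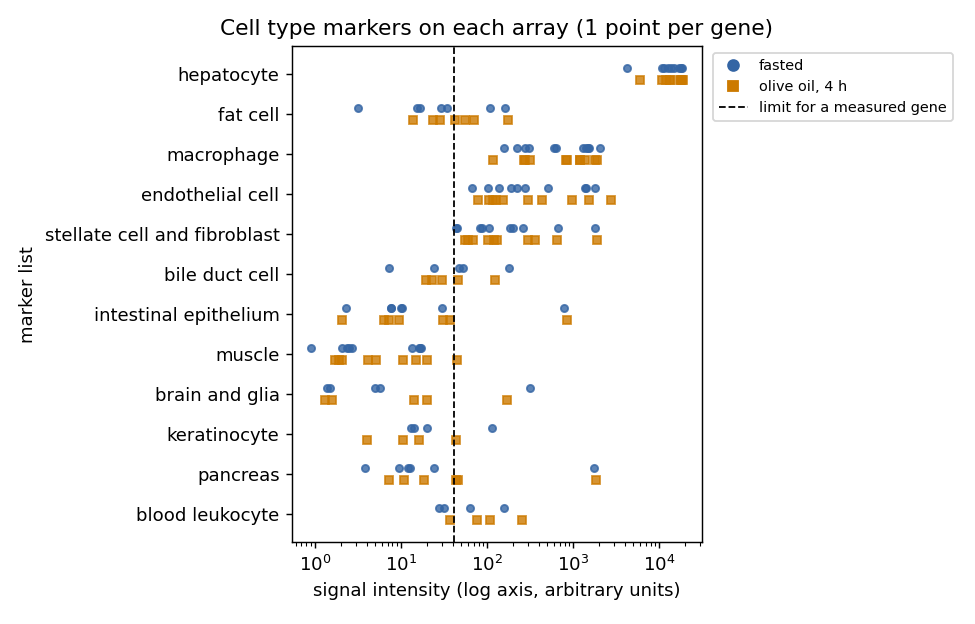
Signal of each marker gene, on a log axis in arbitrary units, by cell type list, in the fasted array (circles) and the olive oil array (squares), with the limit for a measured gene at 41.4 (dashed). Hepatocyte markers lie at 4274 and above on both arrays, macrophage and endothelial markers at 66.5 and above, and most markers of fat, intestine, muscle, brain and keratinocytes below the limit.

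Other genes of the pathway were read from lists of fatty acid uptake, binding and activation. The count of each list below stands beside the same shares of all measured genes, 9.44% higher and 10.1% lower. The lists are short, and none was tested against these shares. Among 3 measured genes of the related binding protein family, Rbp7, a retinol binding protein of fat and endothelium, was at 45.8 and 91.7, 2.00-fold higher, Fabp12 was lower as given above, and Crabp1, a retinoic acid binding protein, differed by 0.53 on the log2 scale from dim signals of 36.4 and 52.5. The other 4 genes of the family with a probe set, Fabp9, Pmp2, Rbp2 and Crabp2, were below the floor on both arrays. In the family of acyl-CoA binding and sterol carrier proteins, to which Dbi belongs, 0 of 6 measured genes were past 1.5-fold upwards and 1 was downwards, or 2 with the arrays centred on their medians, and the median log2 difference was -0.11. That gene was Acbd4, at 312.7 and 196.2, 1.59-fold lower. Acbd5, a tether between peroxisomes and endoplasmic reticulum, differed by -0.57, and Acbd6 by 0.38.

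Genes of lipid uptake at the plasma membrane, beside Cd36, were at least 1.5-fold higher for 3 of 15 measured genes and lower for 1, with a median log2 difference of 0.07. Centring both arrays on their medians left 1 gene higher, since Scarb2 and Lpl were then short of 1.5-fold. The highest was Mfsd2a, a transporter of lysophospholipids, at 887.6 without and 2478 with oil, 2.79-fold higher. Scarb2, a lysosomal relative of Cd36, was 1.54-fold and Lpl, lipoprotein lipase, 1.51-fold higher. Slc27a4, a fatty acid transport protein, was 2.03-fold lower, from 119.6 to 58.9. The transport proteins of liver, named after their values were seen, were nearly equal, Slc27a2 at 11078 and 10560 and Slc27a5 at 6085 and 6477.

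Acyl-CoA synthetases, which activate the fatty acids that Dbi then holds, were at least 1.5-fold higher for 1 of 8 measured genes and lower for 3, with a median log2 difference of -0.31. Acsm3, of the medium-chain branch, was at 100.6 and 206.9, 2.06-fold higher. Acsl3 was 2.07-fold, Acsm5 1.57-fold and Acsl5 1.51-fold lower, the last with 0.35 on another probe set. PPAR-alpha targets, the group to which Fabp1 belongs, were at least 1.5-fold higher for 1 of 20 measured genes and lower for 3. The gene with the higher signal was Pdk4, a kinase that restrains pyruvate oxidation, and those with the lower signal were Ehhadh, Acot1 and Vnn1, between 1.57-fold and 1.97-fold. The median log2 difference of the list was -0.02.

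Genes of the fat cell and PPAR-gamma program, to which Fabp4 belongs, were at least 1.5-fold higher for 4 of 10 measured genes and lower for 1. The shares over all measured genes were 9.44% and 10.1%, and a list of 10 genes gives a description only. The median log2 difference was 0.11. The lipid droplet genes Cidea and Cidec were 3.19-fold and 1.76-fold higher and the lipase gene Pnpla2 2.10-fold higher, next to Lpl, while Lipe was lower as given above. Pparg itself, the receptor that drives this program in fat cells, was at 52.1 without and 43.7 with oil, and was named after its values were seen. Among 3 measured genes of ileal bile acid handling, given for Fabp6, 0 were 1.5-fold different, and 1, Nr0b2, with the arrays centred on their medians. Nr0b2, a repressor of bile acid synthesis, differed by -0.58, the bile acid receptor gene Nr1h4 by -0.35 and the ileal transporter gene Slc10a2 by 0.24.

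**Figure D4:**
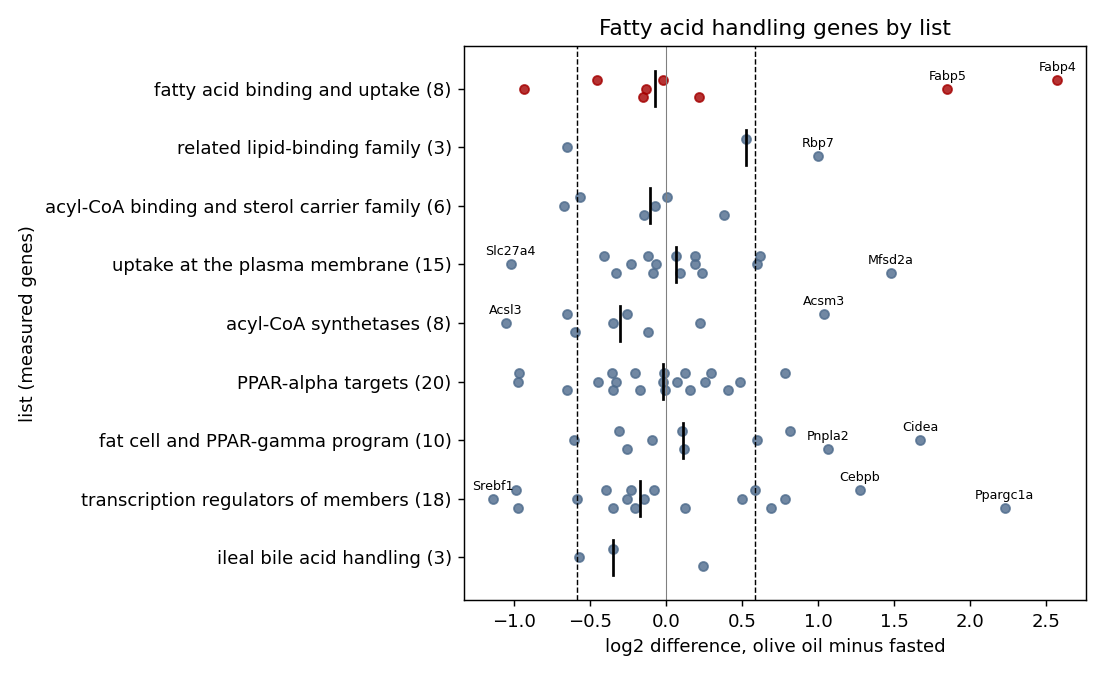
Log2 difference, olive oil minus fasted, of each measured gene by list (points), with the list median (black bar), dashed lines at 1.5-fold and names at 2-fold or more. The number of measured genes stands after each list, a gene may be in more than 1 list, and Fabp4 and Fabp5 lie to the right of every gene of the other lists drawn here except Ppargc1a, which is right of Fabp5.

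Transcription regulators known to act on genes of this family differed in both directions. Of 18 measured genes, 5 were past 1.5-fold upwards and 4 downwards, beside 9.44% and 10.1% of all measured genes. The median log2 difference was -0.17. Ppargc1a, a coactivator of PPAR receptors, was at 35.0 and 164.2, 4.69-fold higher. Without oil it was under the limit of 41.4, so that it is among the measured genes only through its signal with oil, and its size depends on how low signals are treated. Cebpb, a factor of fat cell formation and the acute phase response, was 2.42-fold higher, Rxrb 1.72-fold and Foxa3 1.61-fold higher, and the xenobiotic receptor gene Nr1i2 had a log2 difference of 0.59. Srebf1, a driver of lipogenesis, was 2.21-fold lower, Foxa2 1.98-fold and Nr1i3 1.96-fold lower, and the liver X receptor gene Nr1h3 had a log2 difference of -0.59. Ppara, the gene of the receptor of which Fabp1 is a target, was at 36.6 without and 35.8 with oil, below the limit for a measured gene, and was named after its values were seen.

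Overall brightness was close on the arrays, with median signals of 42.5 and 44.7. The beta-actin ratio of 3' over 5' signal, which reflects how intact the RNA was, stood at 2.63 without and 3.20 with oil, and that of Gapdh was 1.28 and 1.34. These values stand beside every difference above, and their part in them was not tested.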

How the data were processed

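Biotin-labelled liver RNA was hybridized to Affymetrix rat arrays, 1 array per group, per the labels' protocols. The deposited values are linear signal intensities per probe set. The submitters' processing notes name Affymetrix Expression Console, with algorithm and version not given in the sources used here. On each array the mean after trimming 2% at each end was 200.1, so the arrays were apparently scaled to a common level, which assumes that most transcripts do not shift. There were no detection calls, and the number of arrays limits the precision.

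Of 31099 probe sets, 57 controls were left out. Values were floored at the 25th percentile (12.8) and log2-transformed, and the brightest probe set stood for a gene. The platform's annotation gave 1 gene for 20826 probe sets, several for 436 and none for 9780. Gene IDs found in a RefSeq table of GRCr8 (20758) gave current symbols. That table was otherwise used only for gene order, and upstream sequences came from a RefSeq promoter table of the same assembly. Differences are olive oil minus fasted. No test was possible with 1 array per group, and 1.5-fold was used as a fixed size.

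The members and lists were chosen with earlier results of these data known. All members were named, and from each list the measured genes at least 1.5-fold different, or the 3 of largest difference where fewer were. Of the cell type lists, single markers were named as examples after their values were seen. Lists for bile duct and pancreas were also read: 0 of 2 and 0 of 1 measured genes were at least 1.5-fold different. Alternatives covered normalization, floor, filter, probe set choice and fold size. The functions were tested on simulated arrays. The tools were statsmodels 0.14.6 for loess, pandas 2.3.3, numpy 2.4.6, scipy 1.17.1 and, for plots, matplotlib 3.10.9, in Python 3.11.15.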

Additional observations from a re-analysis of the deposited data

How the results depend on the processing

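Of 109 values recomputed under 12 alternatives, 103 moved by less than the scatter between probe sets or, for counts, by no more than 1.5 times, 6 moved further and 0 changed sign from a difference of 1.5-fold or more. Many of the 103 could not move, so that number does not measure robustness. Each member has 1 probe set and each measured member lay above the floor. Leaving out the floor, changing the filter or changing the probe set choice therefore cannot alter the log2 difference of a member that is kept. The log2 difference of Fabp4, 2.58, was 2.01 for a floor raised to the 50th percentile and 2.07 for 16 added to each signal. The number of members at least 1.5-fold higher, 2, was 1 with a filter at the 75th percentile, which drops Fabp4, and 1 on leaving out shared-transcript suffixes, which removes Fabp4 and Cd36. The number at least 1.5-fold lower, 1, was 0 at 2-fold and 0 at 3-fold. Fabp1 ranged from -0.09 to 0.04 and the median over the members from -0.15 to -0.02. Without a filter Fabp6 entered with 0.06, its olive oil signal against the floor. With the mean over probe sets no member changed, since each has 1. No paired analysis was possible because each group is 1 array. Dim signals limit the sizes given for Fabp3, Fabp4 and Fabp6. For the companion lists, recomputed under 3 scalings as a choice made after seeing the data, centring on medians moved 3 higher to 1 among uptake genes, 1 higher to 0 among endothelial markers and 1 lower to 2 in the acyl-CoA binding family, and gave 1 lower in place of 0 for ileal, bile duct and leukocyte lists. Centring also moved 5 higher to 4 among regulators and 4 higher to 3 in the PPAR-gamma list. Among stellate markers it moved 3 higher to 2, and among endothelial markers 2 lower to 3. Quantile and loess scaling moved 4 lower to 3 among regulators and took Lrat out of the stellate list's calls. Quantile scaling moved 3 lower to 2 among acyl-CoA synthetases.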
